A study of Homo sapiens with 4 samples.

Results

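The mitochondrial chromosome carries 8 tRNA genes on the strand that the reference annotates as minus, and these genes were described here in HEK293T cells, an established human line of embryonic kidney origin. They were chosen from the deposited gene counts as the genes on the mitochondrial chromosome with a minus strand and a length under 100 bases, which gave MT-TQ, MT-TA, MT-TN, MT-TC, MT-TY, MT-TS1, MT-TE and MT-TP out of 62700 genes in all, 37 of them on that chromosome. The rule used no expression value, though the members were chosen with earlier results of these data known. All cells belonged to a stable clone with the genotype CMV-V5-MITO-PRADA, which carries a PRADA labelling construct in the mitochondrial matrix. In the labelled group of 2 libraries (4SU+AP+DF in the titles), cells received 100 µM s4U, a uridine analogue built into new RNA, for 5 h, then 0.5 mM alkyne phenol with s4U for 30 min, and labelling was then begun with D-amino acid (10 mM, 30 min). The unlabelled group of 2 libraries (4SU+AP) had the same construct, s4U and alkyne phenol, and the D-amino acid was omitted. Ribosomal RNA was depleted before library preparation, and the series design calls the material enriched. The comparison asks which RNAs were more abundant in the libraries when labelling was begun. Xenograft material that the design also mentions was not analysed here. Titles name biological replicates without saying how cultures were kept apart, so p-values measure only the spread between these libraries.

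Human mitochondrial DNA is transcribed along both strands into long precursor RNAs, and tRNAs punctuate these precursors. RNase P cuts at the 5′ end of each tRNA, ELAC2 cuts at the 3′ end, and TRNT1 then adds the CCA tail to which an amino acid is joined. The precursor read as the minus strand gives MT-ND6 and these 8 tRNAs, and most of its remaining length is non-coding RNA that is quickly degraded. Each minus-strand tRNA lies opposite a stretch of the plus-strand precursor that carries its mirror sequence.

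The 8 sequences are shown because they define the members and their amino acids. They are the RNA-sense sequences of the GENCODE 29 transcripts on GRCh38, written 5′ to 3′ with T for U, and capitals mark the anticodon, the 3 bases that read the codon. In all 8 the anticodon sat in a loop closed by a stem of 5 pairs of 5 (Watson-Crick or G-U).
MT-TQ, glutamine (chrM:4329-4400): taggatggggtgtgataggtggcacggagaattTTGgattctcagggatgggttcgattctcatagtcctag
MT-TA, alanine (chrM:5587-5655): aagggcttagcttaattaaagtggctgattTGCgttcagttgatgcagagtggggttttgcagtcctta
MT-TN, asparagine (chrM:5657-5729): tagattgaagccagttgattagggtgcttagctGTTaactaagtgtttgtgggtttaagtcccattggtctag
MT-TC, cysteine (chrM:5761-5826): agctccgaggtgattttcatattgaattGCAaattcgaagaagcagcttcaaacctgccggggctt
MT-TY, tyrosine (chrM:5826-5891): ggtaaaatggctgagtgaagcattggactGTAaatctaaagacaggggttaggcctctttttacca
MT-TS1, serine (chrM:7446-7514): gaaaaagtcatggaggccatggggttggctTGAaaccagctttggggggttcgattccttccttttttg
MT-TE, glutamate (chrM:14674-14742): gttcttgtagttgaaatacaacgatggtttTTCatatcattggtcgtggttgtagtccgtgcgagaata
MT-TP, proline (chrM:15956-16023): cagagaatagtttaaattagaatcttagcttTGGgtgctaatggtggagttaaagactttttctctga

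The members differed in base composition from the plus-strand tRNAs, and strand was part of the choice. Their RNA held 23.5 to 36.1% G, with a median of 28.0%, against 10.3 to 19.1% with a median of 15.4% in the 14 plus-strand tRNAs, so the ranges did not overlap. Their A content was lower, at a median of 22.6% against 36.4%. U content overlapped, at 27.3 to 37.7% in the members and 22.0 to 35.4% in the plus-strand tRNAs. MT-TQ was the richest in G of the members (36.1%), and MT-TP was the poorest (23.5%).

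The position of each gene decides which other RNA its counts can hold, because fragments were counted without regard to strand. MT-TQ overlaps plus-strand MT-TI by 3 bases and stands 1 base before plus-strand MT-TM. Between MT-ND2 and MT-CO1, in a stretch of 392 bases with 5 tRNA genes, MT-TA, MT-TN, MT-TC and MT-TY follow plus-strand MT-TW. The stretch between MT-TN and MT-TC is 31 bases long and is known as the origin of light-strand replication, and MT-TC and MT-TY overlap by 1 base. MT-TS1 abuts the end of MT-CO1, whose mature mRNA is known to continue across the mirror sequence of MT-TS1. MT-TE lies between MT-ND6, also on the minus strand, and MT-CYB, opposite the trailing part of the MT-ND5 mRNA. MT-TP is the last annotated gene, next to the control region, and it is the first gene reached by transcription from the light-strand promoter. A count for a member is therefore the sum of the tRNA, its precursor and any RNA of the other strand at that position, and these cannot be told apart.

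Because the genes are 66 to 73 bases long, the free stretch up to the next annotated base on either side limits which fragments can be counted without touching another gene. It was 105 bases for MT-TN and 96 bases for MT-TC, the longest of the 7 members with a gene on both sides, and 70 bases for MT-TQ, the shortest. Fragments that touch 2 genes can stay unassigned as ambiguous. Ambiguous records made up 9.24% and 9.02% of assigned plus ambiguous records in labelled libraries, and 11.3% and 12.8% in unlabelled libraries. Their part in the result was not tested.

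Nuclear copies of the flanking genes lie in the same order on chromosome 1, where MTND2P28 and MTCO1P12 are 390 bases apart (630684 to 631073), against the 392 bases between MT-ND2 and MT-CO1. The stretches between the copies of the genes that flank MT-TQ and MT-TS1 are 206 bases (629434 to 629639) and 140 bases long (632617 to 632756), against 207 and 140 bases on the mitochondrial chromosome. For MT-TE, MTND6P4 and MTCYBP18 on chromosome 5 are 73 bases apart, as are MT-ND6 and MT-CYB. These stretches were placed by the order and spacing of their flanking genes and were not compared by sequence. The count table has 0 genes lying wholly within the 4 nuclear stretches, and their part in the members' counts was not tested.

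The libraries held 9380258 and 12287451 assigned fragments in the labelled group, and 8172347 and 5771795 in the unlabelled group. Of 8 genes that HEK293T cells are known to express, 7 had at least 1 CPM (TMM-scaled counts relative to library size) in every library, and NEFM had 1.28 and 2.50 CPM in labelled against 0.445 and 1.21 CPM in unlabelled libraries. Of 8 markers of blood, endothelium, fibroblasts and liver, 4 (CD3E, HBB, COL1A2 and DCN) were at 0 in every library, and the 8 together summed to 1.17 and 1.25 CPM in labelled against 0.445 and 1.96 CPM in unlabelled libraries.

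All 8 minus-strand tRNAs had more CPM in both labelled libraries than in either unlabelled library, and 7 of the 8 rose at an adjusted p under 0.05 in edgeR, the quasi-likelihood test with Benjamini-Hochberg adjustment over 18973 genes. All 8 passed the filter on low counts. Of all genes tested, 51 (0.269%) rose by this rule, and 22.2% had both labelled values above both unlabelled values. None of the 8 fell, against 0.0158% of all genes, and 22.4% of all genes had both labelled values below both unlabelled values. The median log2 fold change was 1.99 over the 8 members and -0.01 over all genes tested. MT-TA was the member that missed the threshold (adjusted p 0.103). DESeq2 called 4 of the 8, MT-TQ, MT-TS1, MT-TE and MT-TP, where it called 0.332% of all genes as higher and 0.0896% as lower. In bulk RNA from enriched material, a change in cell number, in RNA per cell and in the part of the RNA enriched cannot be told apart.

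Together the members took 0.117% of all assigned fragments in labelled replicate 1 (10997 fragments, 95% Wilson interval 0.115 to 0.119%) and 0.163% in labelled replicate 2 (19989 fragments, 0.160 to 0.165%). They took 0.0285% in unlabelled replicate 1 (2328 fragments, 0.0274 to 0.0297%) and 0.0610% in unlabelled replicate 2 (3523 fragments, 0.0591 to 0.0631%). The means were 0.140% ± 0.0321 in labelled and 0.0448% ± 0.0230 in unlabelled libraries (SD, n = 2 each), a ratio of 3.13. The difference of 0.0952 percentage points was larger than the spread within either group. Set against mitochondrial fragments alone, the groups overlapped. The members took 0.434% and 0.526% of the fragments on the mitochondrial chromosome in labelled libraries, and 0.315% and 0.585% in unlabelled libraries, so both the lowest and the highest value belonged to the unlabelled group. The whole mitochondrial chromosome took 27.0% and 30.9% of labelled and 9.04% and 10.4% of unlabelled fragments.

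**Figure D1:**
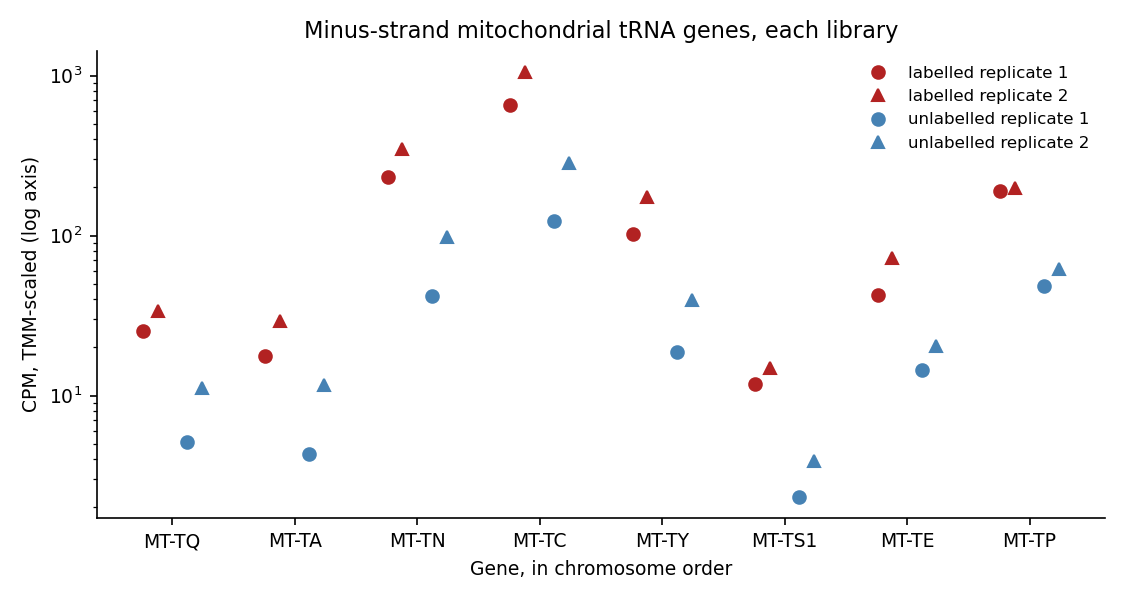
CPM (TMM-scaled, log axis) of the 8 minus-strand mitochondrial tRNA genes in each of the 4 libraries, 1 point per library, in chromosome order. For every gene both labelled points lie above both unlabelled points, and the gap is smallest for MT-TA, at 17.7 CPM in labelled replicate 1 against 11.6 CPM in unlabelled replicate 2.

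The cysteine tRNA gene MT-TC dominated the group. It had 659 and 1053 CPM in labelled libraries, against 124 and 285 CPM in unlabelled libraries. Its lowest labelled value was 2.31 times its highest unlabelled value, and its log2 fold change was 2.07 ± 0.33 (SE) with an edgeR adjusted p of 0.0178. MT-TC made up 53.1% ± 2.39 of the members' fragments in labelled and 50.7% ± 4.06 in unlabelled libraries (SD, n = 2 each), a difference within the spread. In DESeq2 MT-TC had a log2 fold change of 2.07 and an adjusted p of 0.193, past the threshold in edgeR alone.

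The other 3 genes of the same cluster behaved unequally against the threshold. MT-TN, which carries asparagine, had 234 and 348 CPM in labelled libraries, against 42.1 and 98.7 CPM in unlabelled libraries. The groups did not overlap, and its log2 fold change was 2.06 ± 0.31 (edgeR adjusted p 0.0117, DESeq2 adjusted p 0.182). MT-TY, which carries tyrosine, had 102 and 174 CPM in labelled libraries, against 18.6 and 39.4 CPM in unlabelled libraries. Its log2 fold change exceeded those of the other members, at 2.28 ± 0.30 (edgeR adjusted p 0.00473, DESeq2 adjusted p 0.0646). MT-TA, which carries alanine, had 17.7 and 29.2 CPM in labelled libraries, against 4.34 and 11.6 CPM in unlabelled libraries. Its log2 fold change was the smallest, at 1.63 ± 0.34, and its unlabelled libraries stood furthest apart of the 8 genes, by 2.67-fold.

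**Figure D2:**
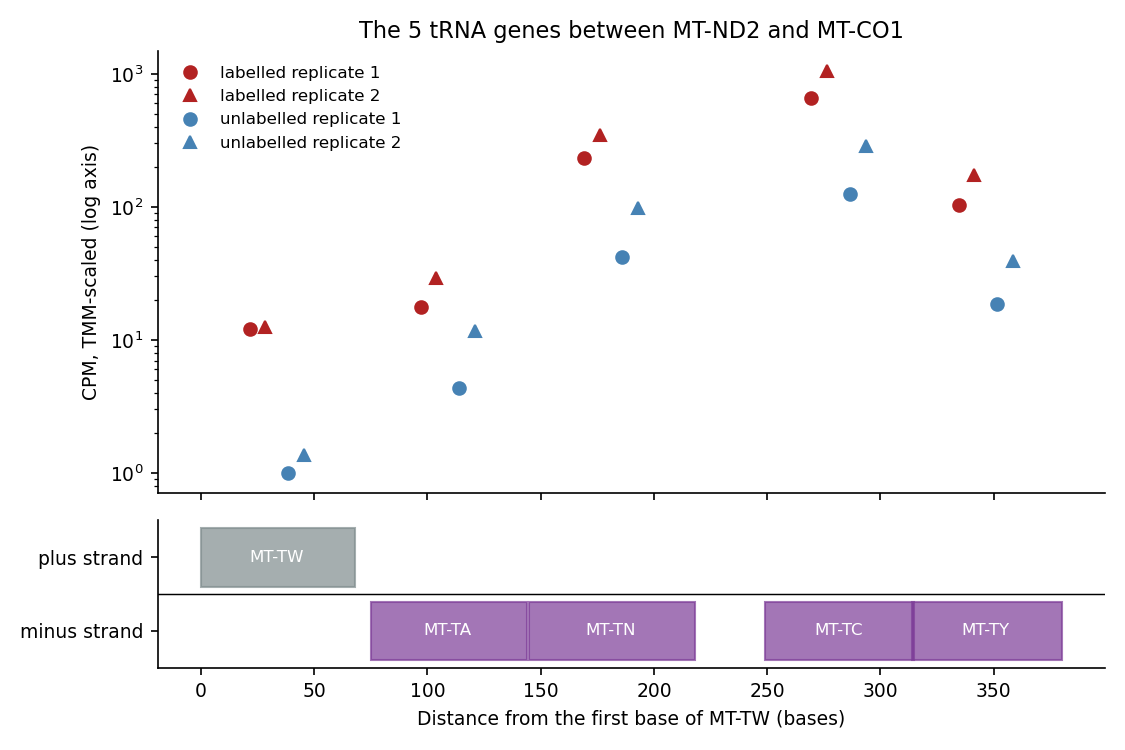
The 5 tRNA genes between MT-ND2 and MT-CO1, drawn to scale by distance from the first base of MT-TW (lower panel, by strand), with CPM in each library above each gene (log axis, 1 point per library). MT-TC is highest in all 4 libraries, and MT-TW, the only plus-strand gene shown, is near 1 CPM in both unlabelled libraries and at 12.01 and 12.4 CPM in the labelled ones.

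Outside that cluster, the glutamine tRNA gene MT-TQ had 25.3 and 33.8 CPM in labelled libraries, against 5.12 and 11.2 CPM in unlabelled libraries. The groups did not overlap, and the log2 fold change was 1.91 ± 0.27 (edgeR adjusted p 0.00814). MT-TS1, one of a pair of serine tRNA genes, had 11.8 and 14.8 CPM in labelled libraries, against 2.34 and 3.92 CPM in unlabelled libraries. It was the least abundant member, with 21 and 26 fragments in the unlabelled libraries, and rose by 2.13 ± 0.28 (edgeR adjusted p 0.00517). Its lowest labelled value was 3.002 times its highest unlabelled value.

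The glutamate tRNA gene MT-TE had 42.8 and 72.0 CPM in labelled libraries, against 14.5 and 20.5 CPM in unlabelled libraries. Its log2 fold change was 1.74 ± 0.23 (edgeR adjusted p 0.00564). MT-ND6, the neighbour on the same strand and a complex I subunit gene, had 2.01 ± 0.33 (edgeR adjusted p 0.0248). MT-TE had 3.91 and 4.61 fragments per 1000 MT-ND6 fragments in labelled libraries, against 4.57 and 5.96 in unlabelled libraries, and these groups overlapped. The MT-ND6 counts can also hold RNA of the other strand, so neither its fold change nor this ratio measures the minus strand alone. The proline tRNA gene MT-TP had 190 and 198 CPM in labelled libraries, against 48.2 and 61.4 CPM in unlabelled libraries. Its libraries lay closest together within each group, and its log2 fold change of 1.83 ± 0.15 had the smallest edgeR adjusted p of the 8, 1.04e-04.

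Per length, on the scale of mean CPM per 1000 bases, the order in labelled libraries was MT-TC (12964), MT-TN (3982), MT-TP (2853), MT-TY (2098), MT-TE (832), MT-TQ (410), MT-TA (340) and MT-TS1 (193). The corresponding levels in unlabelled libraries were 3098 for MT-TC, 964 for MT-TN, 806 for MT-TP, 439 for MT-TY, 254 for MT-TE, 113 for MT-TQ, 116 for MT-TA and 45.4 for MT-TS1. MT-TC was first and MT-TS1 last in each of the 4 libraries. MT-TN and MT-TP changed places in unlabelled replicate 1, at 577 and 709 in that order, and MT-TQ and MT-TA did so in unlabelled replicate 2, at 155 and 168. Among neighbours in the order, MT-TQ and MT-TA overlapped across libraries in both groups, while MT-TN with MT-TP and MT-TY with MT-TE overlapped across the unlabelled libraries. These levels depend on which fragments can be counted for so short a gene, so they need not equal the amounts of tRNA.

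The spread within the unlabelled group differed between the members. Unlabelled replicate 2 exceeded unlabelled replicate 1 in CPM by 2.18-fold for MT-TQ, and by 2.12-fold to 2.67-fold for the 4 genes between MT-ND2 and MT-CO1. The excess was 1.68-fold for MT-TS1, 1.42-fold for MT-TE and 1.27-fold for MT-TP. Plus-strand tRNA genes next to members did not follow this order. Their ratios of unlabelled replicate 2 to replicate 1 were 2.66 (MT-TI), 0.995 (MT-TM), 1.35 (MT-TW), 1.70 (MT-TD) and 1.98 (MT-TT). Within the labelled group, replicate 2 exceeded replicate 1 by 1.04-fold for MT-TP and by 1.26-fold to 1.70-fold for the other 7 members. All 8 genes were thus higher in replicate 2 of both groups. Without unlabelled replicate 1 the log2 fold changes ran between 1.07 (MT-TA) and 1.85 (MT-TY), and without unlabelled replicate 2 between 2.01 (MT-TE and MT-TP) and 2.91 (MT-TY). Leaving out labelled replicate 1 gave 1.88 (MT-TP) to 2.63 (MT-TY), and leaving out labelled replicate 2 gave 1.21 (MT-TA) to 1.95 (MT-TS1). In each of these 4 fits all 8 genes passed the edgeR threshold, MT-TA included, with the lone library of a group assumed to vary like the others. Of all genes tested, 11.6% rose without unlabelled replicate 1 and 2.06% without unlabelled replicate 2, against 0.367% without labelled replicate 1, 0.236% without labelled replicate 2 and 0.269% with all libraries.

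Plus-strand tRNAs had higher values in labelled libraries as well. Of 14 genes 12 had enough counts to be tested, and all 12 rose in edgeR, with a median log2 fold change of 2.08 and a range of 1.67 (MT-TM) to 3.38 (MT-TW), against 1.63 to 2.28 in the members. DESeq2 called 9 of the 12, and edgeR called 11 of 12 without labelled replicate 2 or with libraries thinned to the lowest total. The remaining genes were too low to test. MT-TF had 4 and 15 fragments in labelled against 3 and 4 in unlabelled libraries, and MT-TV had 10 and 83 in labelled against 7 and 2 in unlabelled libraries. Among all tRNA fragments of the mitochondrial chromosome the members took 65.0% and 63.2% in labelled and 63.2% and 67.3% in unlabelled libraries, so the balance between the strands overlapped between groups. The members' means were 64.1% ± 1.24 and 65.2% ± 2.92 in labelled and unlabelled libraries (SD, n = 2 each). The 3 genes whose profile over the 4 libraries was closest to the members' mean profile, by Euclidean distance of centred log2 CPM among 12648 genes, were all plus-strand tRNAs, MT-TK (0.120), MT-TH (0.161) and MT-TD (0.177). The members themselves stood 0.142 (MT-TQ) to 0.535 (MT-TP) from that mean.

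**Figure D3:**
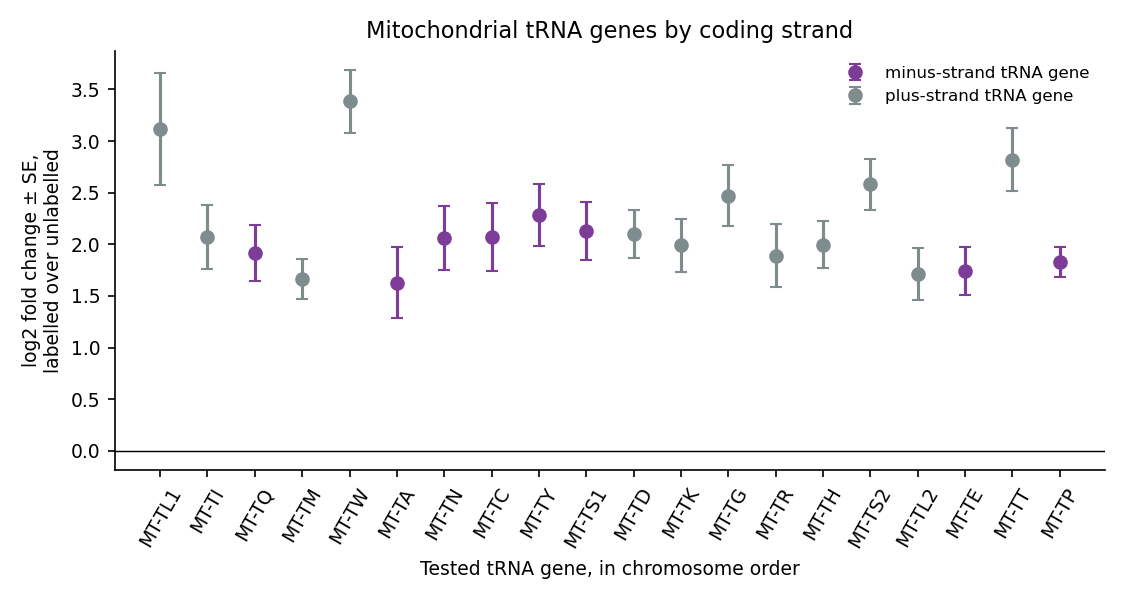
Log2 fold change of labelled over unlabelled libraries with its standard error (edgeR, 2 libraries per group) for the 20 mitochondrial tRNA genes tested, in chromosome order and coloured by strand. The minus-strand genes lie between 1.63 and 2.28, and the highest value, MT-TW at 3.38, belongs to a plus-strand gene.

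Each member was then set against the nearest plus-strand gene on either side. RNA of the other strand at the member's position would come from the same plus-strand precursor as those genes. In 6 of 15 such ratios the groups did not overlap, with lower values in labelled libraries. The two-sided exact permutation test gave p = 0.333 for each of these 6, the smallest p possible, because 2 of the 6 arrangements of the libraries separate the groups, and 0.833 adjusted over the 15 ratios. The 6 are therefore given as values and not as a difference. There were 1.48 and 2.36 MT-TA fragments per MT-TW fragment in labelled libraries, against 4.33 and 8.56 in unlabelled libraries. For MT-TY the ratio to MT-TW was 8.53 and 14.1 in labelled libraries, against 18.6 and 29 in unlabelled libraries. MT-TN and MT-TC gave the same order against MT-TW, with a labelled minus unlabelled difference of log2 ratio of -1.24 each. These 4 ratios share 1 denominator, MT-TW, which had 9 fragments in each unlabelled library and 103 and 129 in the labelled libraries.

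MT-TP stood in the same relation to its plus-strand neighbour MT-TT, a threonine tRNA gene. There were 14.4 and 12.3 MT-TP fragments per MT-TT fragment in labelled libraries, against 33.3 and 21.4 in unlabelled libraries. MT-TT had 113 and 168 fragments in the labelled and 13 and 19 in the unlabelled libraries. Its own log2 fold change was 2.82, against 1.83 for MT-TP. MT-TQ had 1.19 and 1.22 fragments per MT-TI fragment in labelled libraries, against 1.53 and 1.25 in unlabelled libraries, a difference of -0.20 in log2 ratio that was no larger than the SD of the unlabelled libraries (0.20).

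For 6 members the nearest plus-strand gene on a side was an mRNA gene, and those ratios overlapped between the groups. MT-TC had 9.37 and 13.2 fragments per 1000 MT-CO1 fragments in labelled libraries, against 7.85 and 16.4 in unlabelled libraries. For MT-TS1 these values were 0.168 and 0.186 in labelled libraries and 0.148 and 0.226 in unlabelled libraries. MT-TE had 2.13 and 3.32 fragments per 1000 MT-CYB fragments in labelled libraries, against 3.16 and 4.01 in unlabelled libraries. MT-TQ and MT-TP have tRNA genes as their nearest plus-strand genes, so the 15 ratios set neither against an mRNA. The ratio of MT-TP to MT-CYB, chosen after its values were seen, was 9.45 and 9.12 per 1000 in labelled libraries, against 10.5 and 11.99 in unlabelled libraries, without overlap. It was not tested and is given as values and not as a difference.

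**Figure D4:**
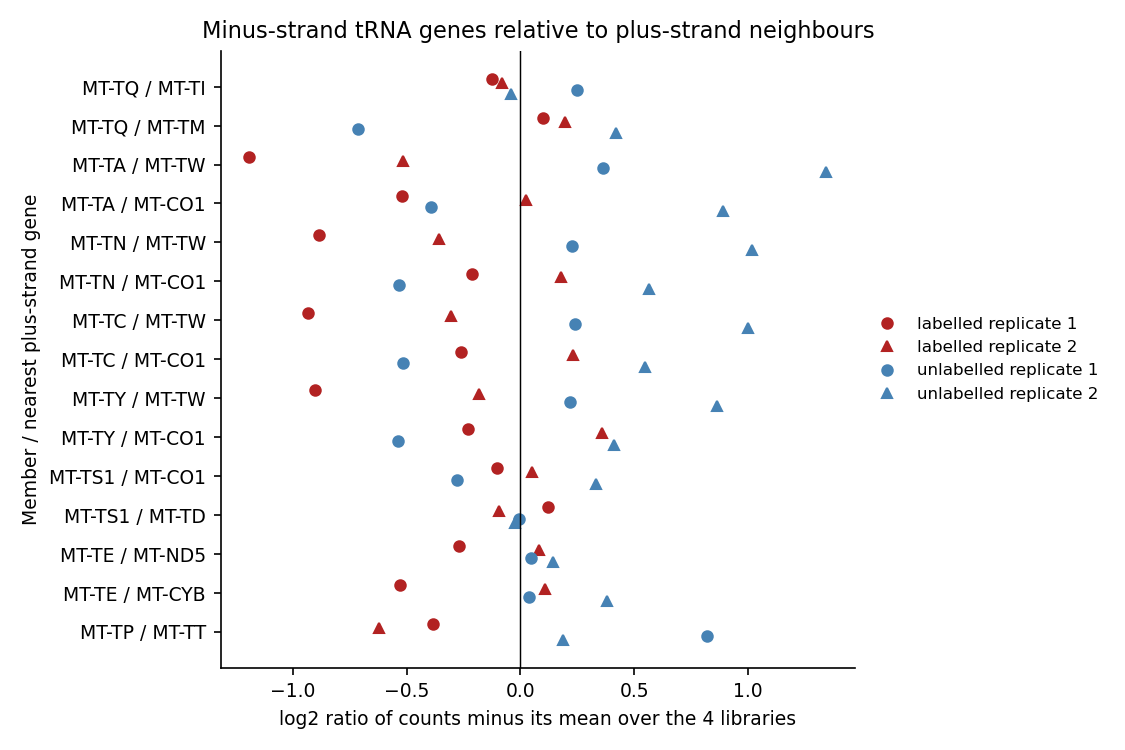
Log2 ratio of each minus-strand tRNA gene's counts to those of its nearest plus-strand gene on either side, shown per library as the deviation from the mean of the 4 libraries (1 point per library). The labelled points lie left of the unlabelled points for the ratios to MT-TW, MT-TT and MT-TI, and the groups overlap for the other 9 ratios.

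Nuclear genes for charging, end processing and modification of mitochondrial tRNAs were counted together with genes of mitochondrial transcription and RNA turnover. The last list holds genes that are not particular to tRNAs. The share of calls over all genes was low, 0.269% higher and 0.0158% lower in edgeR. Of 41 such genes, all tested, 0 rose and 0 fell at an adjusted p under 0.05 in edgeR or in DESeq2. An unadjusted edgeR p under 0.05 was found for 2, and the median log2 fold change was 0.05. The values describe these mRNAs in libraries of enriched material and do not measure expression of the genes in the cells. With 1 library left out, edgeR called 7 of the 41 (5 of them higher) without unlabelled replicate 1, where 19% of all genes were called, and 2 (1 of them higher) without unlabelled replicate 2, where 4.61% were. Among 10 genes for the matching synthetases and the amidotransferase that makes glutamine tRNA, SARS2 (serine) had -0.67 ± 0.26, YARS2 (tyrosine) 0.27 ± 0.14 and PARS2 (proline) 0.20 ± 0.16, with edgeR adjusted p-values of 0.381, 0.495 and 0.648. The 5 end-processing genes had a median of 0.02, with the RNase P subunits TRMT10C at 0.17 ± 0.12 and PRORP at -0.10 ± 0.19, and ELAC2 at 0.05 ± 0.14. Among 14 modification genes (median 0.08), YRDC had 0.30 ± 0.14, the tRNA thiolase TRMU -0.25 ± 0.12 and the pseudouridine synthase PUS1 0.21 ± 0.13. Among 12 genes of transcription and RNA turnover (median 0.05), the mitochondrial poly(A) polymerase MTPAP had 0.46 ± 0.12 (edgeR adjusted p 0.225), and the RNA-binding partners LRPPRC and SLIRP had -0.28 ± 0.14 and -0.27 ± 0.14.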

How the data were processed

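The deposited table holds raw fragment counts per gene, which the authors made with featureCounts 1.6.4 on GENCODE 44, per the file headers, from read pairs with both ends mapped, without chimeric pairs, a strand option or a multi-mapping option. The submitters' processing notes name STAR 2.7.9a, DESeq2 1.42.0 and the build GRCh38. All 62700 gene IDs matched a symbol. A second deposited table holds counts of alignment records by assignment status.

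Counts were tested with edgeR 4.0.16 in R 4.3.3 (filterByExpr, TMM, glmQLFit, glmQLFTest, no block) over 18973 genes, with a threshold of 0.05 on the Benjamini-Hochberg adjusted p, after a test on simulated data. Standard errors are the log2 fold change over the square root of F. Alternatives were DESeq2 1.42.0, RLE and library-size scaling, TMM without mitochondrial genes, no filter, CPM of at least 1 in 2 libraries, thinning to the lowest total, a replicate block and leaving out each library. Named genes were the 8 members, their neighbours, MT-ND6, the extremes of the plus-strand tRNAs, the 3 smallest p of each gene list and the 3 most alike profiles (mean CPM of at least 5, log2 of CPM + 0.5). Members, lists and tests were chosen with earlier results of these data known. Permutation tests and 95% Wilson intervals used SciPy 1.17.1 in Python 3.11.15. Intervals cover counting error only, since the labels name no molecular identifiers and PCR copies may be counted. Sequences came from GENCODE 29 transcripts on GRCh38, with lengths equal to those in the table.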

Additional observations from a re-analysis of the deposited data

How the results depend on the processing

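Of the 8 members, 7 or 8 passed the edgeR threshold under every alternative except DESeq2, where 4 did. The 4 lost or missed there were MT-TA, MT-TN, MT-TC and MT-TY, with adjusted p-values of 0.794, 0.182, 0.193 and 0.0646, and the cause was not tested. Every alternative kept the direction of all 8 log2 fold changes, over ranges such as 1.07 to 2.46 for MT-TA and 1.47 to 2.01 for MT-TP. MT-TA passed with library size alone (1.25, adjusted p 0.0305), with no filter, with the replicate block and without any 1 library. Library size alone moved the median of all genes to -0.37, against which its 1.25 is to be read. The labels name no pairing of same-numbered libraries. The correlation of their deviations was -0.07 over 18973 genes, which cannot settle whether they were paired. The replicate block called 8 of 8 members (MT-TA adjusted p 4.83e-11) and 236 genes in all, against 54 without it. Over all genes the calls were 2744 with library size alone, 302 with no filter, 93 without labelled replicate 1, 58 without labelled replicate 2, 3985 without unlabelled replicate 1 and 937 without unlabelled replicate 2, and DESeq2 called 80. Of the 41 nuclear factor genes, 0 were called, except 7 with library size alone, all lower (14.5% of all genes were called), and 0 to 7 with 1 library left out, with 7 (5 of them higher) without unlabelled replicate 1 and 2 without unlabelled replicate 2. With 1 library left out, the difference in the members' share of all fragments was 0.0725 to 0.118 percentage points, and that of their share of mitochondrial fragments, 0.0300 points with all libraries, was -0.105 to 0.165. Leaving out 1 library turned the sign of 7 of the 15 ratio differences, and could not turn that of the 6 without overlap. The 7 log2 ranges were -0.27 to 0.86 for MT-TQ to MT-TM, -1.14 to 0.15 for MT-TA to MT-CO1, -0.58 to 0.52 for MT-TN to MT-CO1, -0.56 to 0.50 for MT-TC to MT-CO1, -0.35 to 0.60 for MT-TY to MT-CO1, -0.36 to 0.25 for MT-TS1 to MT-CO1 and -0.078 to 0.14 for MT-TS1 to MT-TD. Counts of 9 to 26 fragments for MT-TW, MT-TT and MT-TS1 in unlabelled libraries limit the precision of their values.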

Other observations

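Over the 20 mitochondrial tRNA genes with an annotated gene on both sides, the free stretch around the gene and the mean CPM had a Spearman rho of 0.10 in labelled and 0.16 in unlabelled libraries, given as a description because these genes share libraries and precursors. Over the 8 members, U content and log2 fold change had a rho of -0.65, and over the 20 tRNA genes tested -0.38. MT-TE, the member richest in U (37.7%), had 1.74 on the log2 scale, and MT-TY, one of the poorest (27.3%), had 2.28. MT-TN (37.0%) and MT-TC (27.3%) nevertheless had nearly equal values, 2.06 and 2.07. These values are likewise a description, and the counts can hold RNA of the other strand, whose U content differs.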
